A study of Arabidopsis thaliana and Brassica oleracea with 14 samples.

Results

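Of the 384 position pairs on a macroarray of leaf transcripts from Arabidopsis thaliana and Brassica oleracea, 47 exceeded a limit of detection on at least 10 of the 14 arrays, which span both species and both treatments. A macroarray is a membrane that carries spots of DNA, to which radioactive cDNA made from a sample binds, and a position pair is 2 adjacent spots of a row, read here as 1 probe. The labels state 522 features, which is more than the 384 pairs, and give no position for any. The 47 pairs are called the widely detected pairs. The pairs were chosen by their signal over background, averaged over both spots, and a pair was kept when it exceeded a limit on at least 10 of the 14 arrays, among them at least 2 of the 4 B. oleracea control arrays. The limit on an array was the 95th percentile of 96 pairs with low signal (rows B, D, F, H, J, L, N and P, columns 25 to 48), called the low block, which stands in for blank spots and is not shown to be blank. The other 241 pairs outside the low block did not meet the rule. The rule used signal, so that the detection and high level of the chosen pairs are descriptions and carry no test.

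The arrays came from A. thaliana accession Col-0 and from B. oleracea subspecies alboglabra, line A12DH, both as leaves of plants 4 weeks old grown with a 16 h photoperiod. Each species had 4 control arrays from watered plants and 3 drought arrays from plants left without water for 5 days, to an average relative water content of the leaves of 45% with a spread of 15. RNA of 5 plants at a time was pooled and 10 µg was labelled with 33P, and no label says which arrays share a pool, so p-values measure the spread between arrays, which may be technical. No gene name is paired with a position in the files used here, so the leaf origin could not be checked against marker genes, and the pairs are named by row letter and columns.

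The title of the series concerns genes of PP2C protein phosphatases. In A. thaliana, PP2Cs of clade A hold back abscisic acid signalling in watered tissue by keeping SnRK2 kinases inactive. Abscisic acid, which builds up as leaves lose water, binds receptors that then block these phosphatases, and the freed kinases switch on drought genes and close stomata. Which of the widely detected pairs hold PP2C probes is not known here. A probe made from one species can also bind cDNA of the other less well, so that signal between species is not transcript level.

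Several arrays stood apart, and results that rest on them are given with and without them. The array labelled A. thaliana control 3 ordered the 47 pairs like the drought arrays of its species. Over the 47 pairs its normalized levels had Spearman correlations of 0.876 to 0.896 with the 3 A. thaliana drought arrays and of 0.129 to 0.416 with the 3 other A. thaliana controls. Over all 384 pairs the ranges overlapped, at 0.478 to 0.816 with the drought arrays and 0.388 to 0.603 with the controls, and the mean was higher with B. oleracea drought (0.702) than with A. thaliana drought (0.668). These are descriptions over pairs that share an array and its normalization. A. thaliana drought 2 has a deposited background of 0 at every spot, and its limit of 128 units was the highest of the 14, against 4.77 to 62.9 on the others. The median background exceeded 500 units on the 4 A. thaliana controls, A. thaliana drought 3 and B. oleracea drought 3, and these are called arrays of high background.

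The widely detected pairs carried most of the signal on every array. They are 12.2% of the 384 pairs, and held between 52.6% and 90.8% of the summed signal over background. The share was 61.9% ± 16.4 (SD, n = 4) for A. thaliana controls, 75.2% ± 16.2 (SD, n = 3) for A. thaliana drought, 87.3% ± 3.94 (SD, n = 4) for B. oleracea controls and 84.6% ± 7.43 (SD, n = 3) for B. oleracea drought. In A. thaliana controls 1, 2 and 4 it lay between 52.6% and 54.4%, and on control 3 it was 86.4%. On A. thaliana drought 1 and 3 it was 83.5% and 85.5%, and on drought 2, the array with a background of 0, it was 56.5%. The 3 brightest of the 47 held 34.2% to 72.7% of the signal of all 47.

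Detection was uneven across the groups. On all 14 arrays, 13 of the 47 pairs exceeded the limit, 8 did so on 13, 9 on 12, 9 on 11 and 8 on 10. In B. oleracea drought, 44 of the 47 exceeded it on all 3 arrays and the other 3 on 2. In A. thaliana drought, 30 exceeded it on all 3 arrays and 17 on 2. The number above the limit there was 46 on drought 1, 31 on drought 2 and 47 on drought 3. The shortfall thus lay almost wholly on drought 2, the array with a background of 0 and the highest limit. In the controls, 26 exceeded it on all 4 A. thaliana arrays and 26 on all 4 B. oleracea arrays, but 4 pairs did so on only 1 A. thaliana control. No pair was below the limit on every array of a group, and the rule left little room for one. By array, the number above the limit ran from 31, on A. thaliana drought 2 and B. oleracea control 4, to 47.

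**Figure D1:**
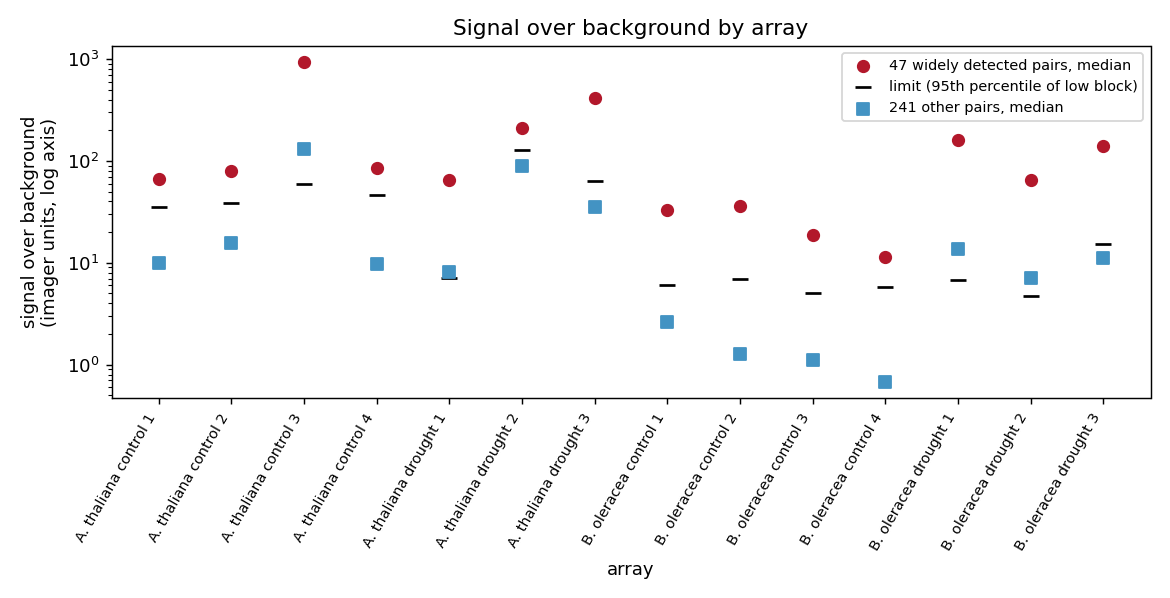
Median signal over background in imager units (log axis) for each of the 14 arrays, for the 47 widely detected pairs (circles) and the 241 other pairs outside the low block (squares), with the limit of the array (bar). The median of the 47 lies above the limit on each array, from 1.63 times the limit on A. thaliana drought 2 to 23.4 times on B. oleracea drought 1.

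In imager units the widely detected pairs were brighter on the drought arrays of B. oleracea than on its controls. Their median signal over background was 32.8, 36.0, 18.7 and 11.4 units on B. oleracea controls 1 to 4 and 160, 64.4 and 141 units on drought 1 to 3, with no overlap between the groups. Of the 47 pairs, 25 (53.2%) had all 3 drought arrays above all 4 controls, against 31.5% of all 384 pairs, and 0 had them all below. Of the 241 other pairs, 91 were above and 4 below. The rule used this same signal, so nothing is read from these shares. The limit changed less, from 5.02 to 6.92 units on the controls to 6.85, 4.77 and 15.2 units under drought, so that the median of the 47 stood at 1.95 to 5.36 times the limit in controls and at 23.4, 13.5 and 9.26 times under drought. In A. thaliana the medians were 65.9, 79.2, 937 and 85.5 units on controls 1 to 4 and 65.2, 208 and 414 units under drought, and the groups overlapped. These units are not comparable between arrays without scaling, and the sources used here do not give the exposure of each array.

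All levels from here on are normalized signals on the log2 scale. Background was corrected with the normexp model, and quantile normalization gave all arrays the same distribution of values. It therefore takes out any shift that most bright pairs share, such as that between the B. oleracea groups. Fold changes on this scale understate the change of dim pairs, because 17.7 units were added before the logarithm.

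The mean level over the 4 groups ran from 6.05 to 11.85 among the 47 pairs, with a median of 7.18, against a median of 5.86 among the 241 others. By this mean, 36 of the 47 were among the 47 brightest of all 384 pairs. The 5 brightest were C9/C10, D3/D4, J3/J4, P23/P24 and M21/M22, and the 5 dimmest were P17/P18, E15/E16, N17/N18, M19/M20 and O19/O20.

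C9/C10 was the brightest pair on 12 of the 14 arrays. In imager units it read 1509, 1647, 97522 and 1244 on the A. thaliana controls and 4803, 17973 and 26232 under drought. It read 8032, 1477, 992 and 431 units on the B. oleracea controls and 12060, 1554 and 6545 under drought. A. thaliana control 3 was the highest of the 14 and B. oleracea control 4 the lowest. Its normalized levels were 12.09, 12.09, 11.67 and 11.80 on the A. thaliana controls and 12.09 on every A. thaliana drought array. A level of 12.09 is the ceiling that quantile normalization gives a pair whose spots are the brightest, so that C9/C10 had little room to differ.

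D3/D4 and J3/J4 followed, each bright on 13 arrays and dim on 1. D3/D4 had levels of 4.82, 11.49, 11.80 and 11.79 on A. thaliana controls 1 to 4 and J3/J4 levels of 5.46, 10.86, 11.24 and 11.13. Control 1 was the low array for both. The spots were not dim there before subtraction. At D3 the total intensity on control 1 was 3421 units and the deposited background 3971 units, while on control 2 they were 4294 and 3185 units. In the other groups the level of D3/D4 was 11.26 ± 0.40 (SD, n = 3) for A. thaliana drought, 10.80 ± 0.86 (SD, n = 4) for B. oleracea controls and 10.90 ± 0.74 (SD, n = 3) for B. oleracea drought.

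P23/P24 was above the limit on all 14 arrays, with levels of 10.41, 10.60, 9.36 and 11.38 on the B. oleracea controls and 8.69, 8.99 and 12.09 under drought. On B. oleracea drought 3 it was the brightest pair of the array. On B. oleracea control 3 its first spot exceeded its second by 5.34 log2 units, so that value is a mean of unlike spots. M21/M22 had levels of 9.38, 8.93, 10.60 and 8.62 on the A. thaliana controls and 10.45, 10.93 and 10.60 under drought, and control 3 lay among the drought values.

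At the lower end, P17/P18 lay between 5.60 and 6.56 on all 14 arrays, with group means from 5.90 ± 0.10 in B. oleracea drought (SD, n = 3) to 6.22 ± 0.35 in A. thaliana controls (SD, n = 4). N17/N18 and M19/M20 had ranges of group means of 0.21 and 0.33 log2 units. E15/E16 and O19/O20 were brightest in A. thaliana controls, at 6.75 ± 0.55 and 6.76 ± 0.33 (SD, n = 4 each).

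Pairs just inside the rule were above the limit on 10 arrays, and the first 5 in order of position were C13/C14, E15/E16, G9/G10, I25/I26 and K7/K8, with mean levels of 6.44, 6.17, 7.69, 6.97 and 6.66. Pairs just outside were above it on 9 arrays, and the first 5 were A3/A4, A9/A10, A13/A14, A15/A16 and D17/D18, with mean levels of 6.23, 6.49, 6.18, 6.06 and 6.28. Another 5 pairs were above the limit on 10 arrays but on fewer than 2 B. oleracea controls, and these were A33/A34, I1/I2, K15/K16, N13/N14 and P7/P8. The levels inside and outside overlap, so the boundary is a matter of the rule.

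**Figure D2:**
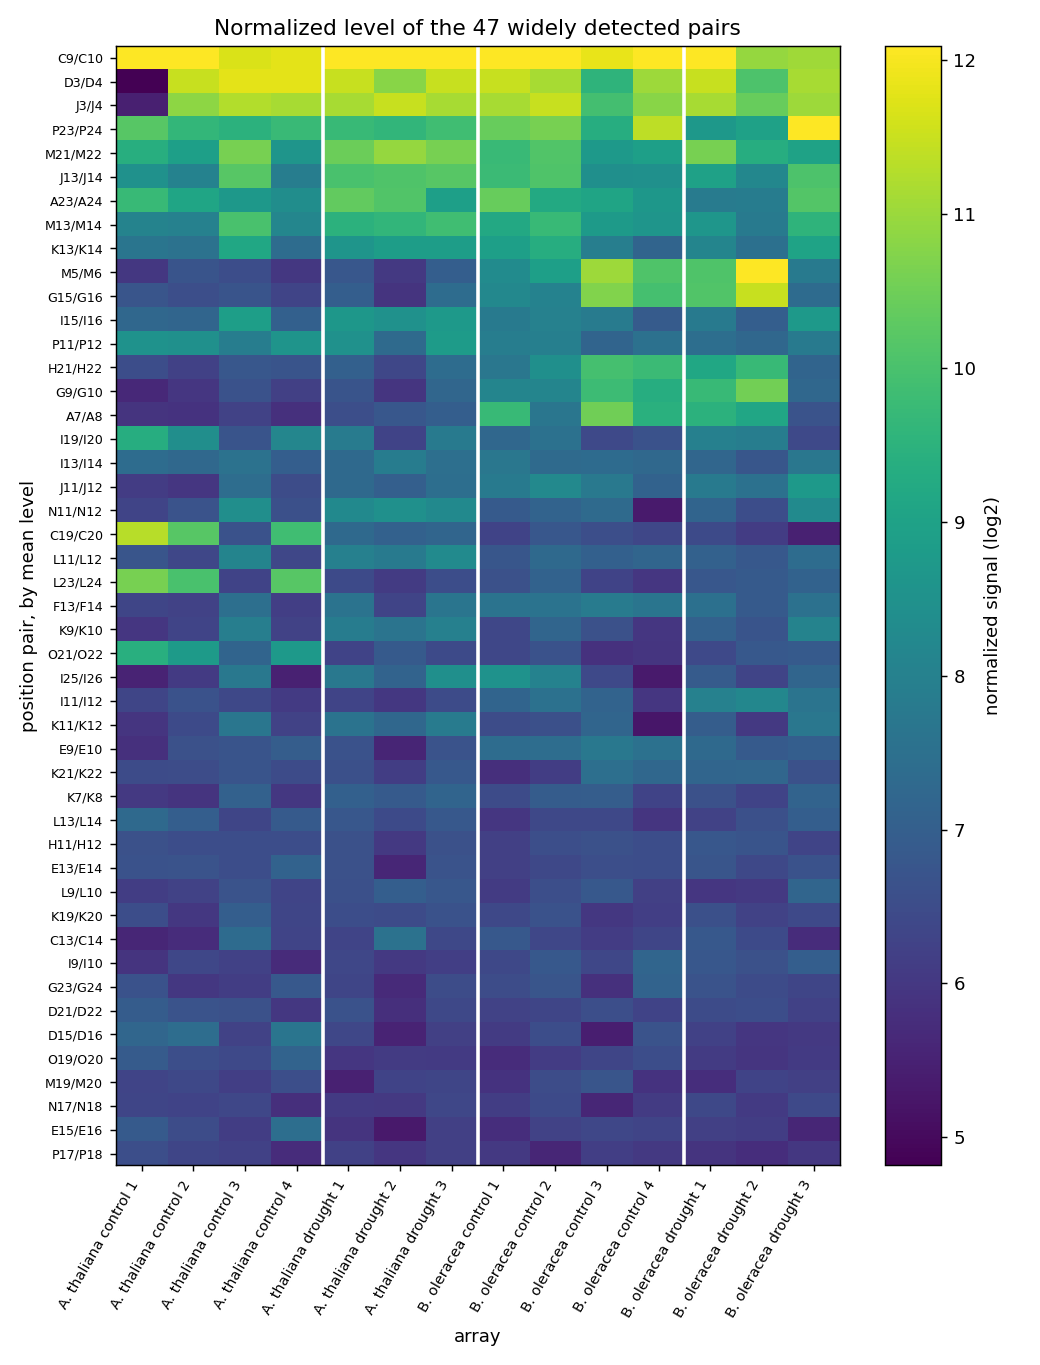
Normalized signal (log2, colour) of the 47 widely detected pairs (rows, ordered by mean level over the 4 groups) on each of the 14 arrays (columns, white lines between groups). C9/C10, D3/D4 and J3/J4 are bright throughout except for D3/D4 and J3/J4 on A. thaliana control 1, and over these pairs A. thaliana control 3 looks like the A. thaliana drought arrays.

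The widely detected pairs were not spread evenly over the membrane. In columns 1 to 24 lay 46 of the 47, 28 of 96 pairs (29.2%) in the odd-lettered rows (A, C and so on) and 18 of 96 (18.8%) in the even-lettered rows. The odd-lettered rows of columns 25 to 48 held 1 of 96 pairs, I25/I26, and the low block was barred by the rule. Columns 9 to 16 held 25 of 64 pairs (39.1%), columns 1 to 8 held 5 of 64 (7.81%) and columns 17 to 24 held 16 of 64 (25%). Of the 47, 25 had another of them directly beside, above or below.

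The spots of most pairs agreed, but a few pairs held spots that differed on every array. The difference between the spots of a pair, as a median over 14 arrays, was under 0.5 log2 units in 38 of the 47 and had a median of 0.22 over the 47. It was 1 or more in 5 pairs, namely I13/I14 (2.33), L11/L12 (1.71), L9/L10 (1.52), I15/I16 (1.39) and E13/E14 (1.27). The same spot was the brighter on all 14 arrays at 4 of these 5, the second spot at I13/I14, L11/L12 and I15/I16 and the first at L9/L10, and at E13/E14 the second was brighter on 13. J11/J12 and K7/K8, with 0.88 and 0.81, also had the second spot brighter on all 14. For these pairs the reading of 2 spots as 1 probe is in doubt, and their levels are means of unlike spots.

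**Figure D3:**
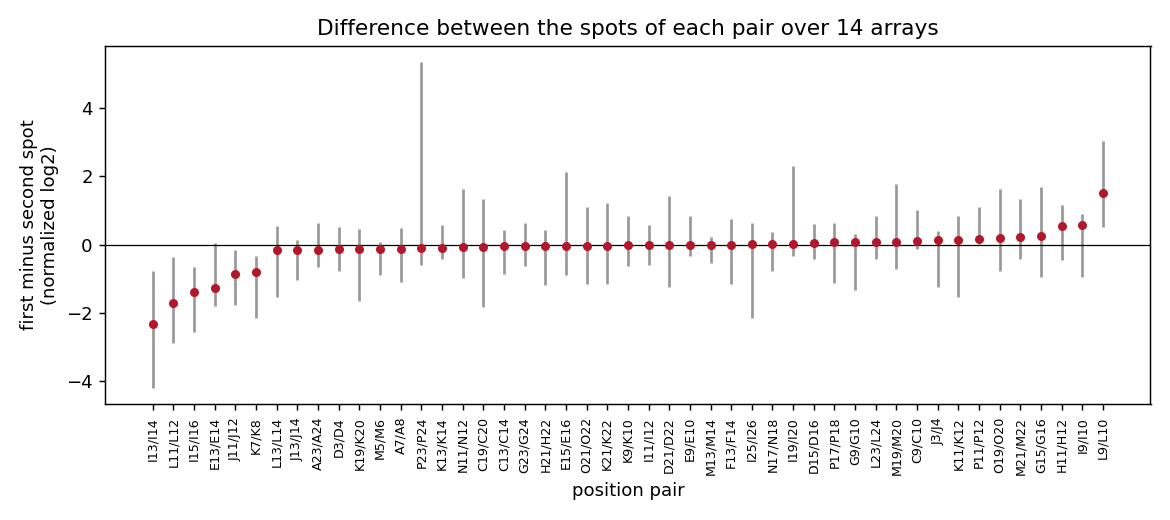
First minus second spot of each of the 47 pairs (horizontal axis), in normalized log2 units, as the median (point) and range (line) over the 14 arrays. Most points lie near 0, while I13/I14, L11/L12, I15/I16 and L9/L10 lie to 1 side of 0 over their whole range.

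Agreement between spots over all pairs of a set is given as a description, since it is drawn from the signal that the rule used. Over the 47 pairs the Spearman correlation of both spots' signal over background averaged 0.694 ± 0.0708 over 4 A. thaliana controls (SD) and 0.754 ± 0.0799 over 3 drought arrays (SD), a difference of 0.0600. In B. oleracea it averaged 0.733 ± 0.0589 over 4 controls (SD) and 0.807 ± 0.102 over 3 drought arrays (SD), a difference of 0.0748. With Pearson correlations of normalized levels the difference in A. thaliana turned to -0.0195. Among the 241 other pairs the Spearman correlation was 0.381 ± 0.292 and 0.156 ± 0.0837 in the A. thaliana and B. oleracea controls (SD, n = 4 each). On the drought arrays of the others it was higher, at 0.721 ± 0.223 for A. thaliana and 0.683 ± 0.134 for B. oleracea (SD, n = 3 each).

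The first comparison was drought against control in A. thaliana. No widely detected pair passed the test, and the strongest evidence was for 3 pairs that were dimmer on drought arrays, O21/O22, L23/L24 and O19/O20. The estimates lay above 0 at 27 of the 47 and below 0 at 20, with a median log2 change of 0.18 over the 47 and -0.02 over all 384 pairs. The median over the 47 was 0.52 with median scaling and -0.18 with cyclic loess, so its sign rests on the scaling. The outcome changed most with the array labelled control 3, as 14 of the 47 passed without it, against 20 of all 384 pairs.

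O21/O22 had levels of 9.41, 8.79, 7.16 and 8.74 on controls 1 to 4 and 6.28, 6.88 and 6.44 on drought 1 to 3. All drought arrays lay below all controls, and control 3 was the lowest control. The change was -1.99 with an SE of 0.40 (95% interval -2.86 to -1.12, limma adjusted p = 0.0953). L23/L24 read 10.60, 10.01, 6.28 and 10.20 on the controls and 6.46, 6.07 and 6.54 under drought, so control 3 lay among the drought values and the others well above. Its change was -2.91 with an SE of 0.76 (95% interval -4.55 to -1.28, limma adjusted p = 0.15). O19/O20 read 6.90, 6.56, 6.42 and 7.15 on the controls and 5.96, 6.09 and 6.05 under drought, without overlap, a change of -0.72 with an SE of 0.20 (95% interval -1.16 to -0.29, limma adjusted p = 0.207).

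Among the pairs estimated brighter under drought, L11/L12, K9/K10 and K7/K8 had the smallest p-values, and none passed. L11/L12 read 6.73, 6.38, 8.10 and 6.37 on the controls and 7.98, 7.81 and 8.30 under drought, a change of 1.14 with an SE of 0.35 (95% interval 0.39 to 1.88, limma adjusted p = 0.262). K9/K10 read 5.97, 6.32, 7.93 and 6.25 on the controls against 7.87, 7.61 and 7.99, a change of 1.20 with an SE of 0.44 (95% interval 0.25 to 2.15, limma adjusted p = 0.368). K7/K8 read 6.02, 5.92, 7.08 and 5.99 on the controls against 7.04, 6.87 and 7.17, a change of 0.77 with an SE of 0.29 (95% interval 0.15 to 1.40, limma adjusted p = 0.368). At all 3 pairs controls 1, 2 and 4 lay below the drought arrays and control 3 lay within their range. L11/L12 and K7/K8 are among the pairs whose spots differ.

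limma, a linear model with moderated errors fitted to all 384 pairs, called 0 of the 47 at an adjusted p under 0.05 (0% of all pairs). At an unadjusted p under 0.05 there were 15 of the 47 (9 higher and 6 lower, 31.9%), against 11.5% of all pairs. Groups did not overlap at 3 of the 47 (O21/O22, O19/O20 and A7/A8, 6.38%), against 5.99% of all pairs. The median 95% interval of a member reached 0.78 log2 units to each side, against 0.47 over all pairs.

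Without control 3, limma called 14 of the 47, 8 higher and 6 lower under drought, against 5.21% of all pairs (20 of 384). Control 3 was set apart by its levels at these same pairs. The p-values without it describe its influence and are not read as evidence of a drought change. The background block was not fitted without control 3. The 6 lower pairs were L23/L24, with a log2 change of -3.91 (limma adjusted p = 4.76e-07), C19/C20 (-3.28, limma adjusted p = 2.99e-05), O21/O22 (-2.45, limma adjusted p = 3.48e-05), D15/D16 (-1.40), O19/O20 (-0.84) and E15/E16 (-1.15). The 8 higher were L11/L12 (1.54, limma adjusted p = 0.000367), K9/K10 (1.64), K7/K8 (1.05), M13/M14 (1.58), J13/J14 (1.96), M21/M22 (1.68), I15/I16 (1.48) and N11/N12 (1.82). The adjusted p-values of limma not given here lay between 0.0159 and 0.0469. Leaving out any other single array gave 0 calls among the 47. With array weights, which lower the influence of arrays that deviate, L23/L24, O21/O22 and L11/L12 passed, among 6 pairs called of all 384. Without control 3 and drought 2, the array with a background of 0, 7 of the 47 passed, against 3.12% of all pairs, a choice made after the data were seen. With background level (high or low) as a block, and among arrays of high background (4 controls and drought 3, a lone array assumed to vary like the controls), 0 passed. O21/O22 then had log2 changes of -1.95 and -2.08.

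**Figure D4:**
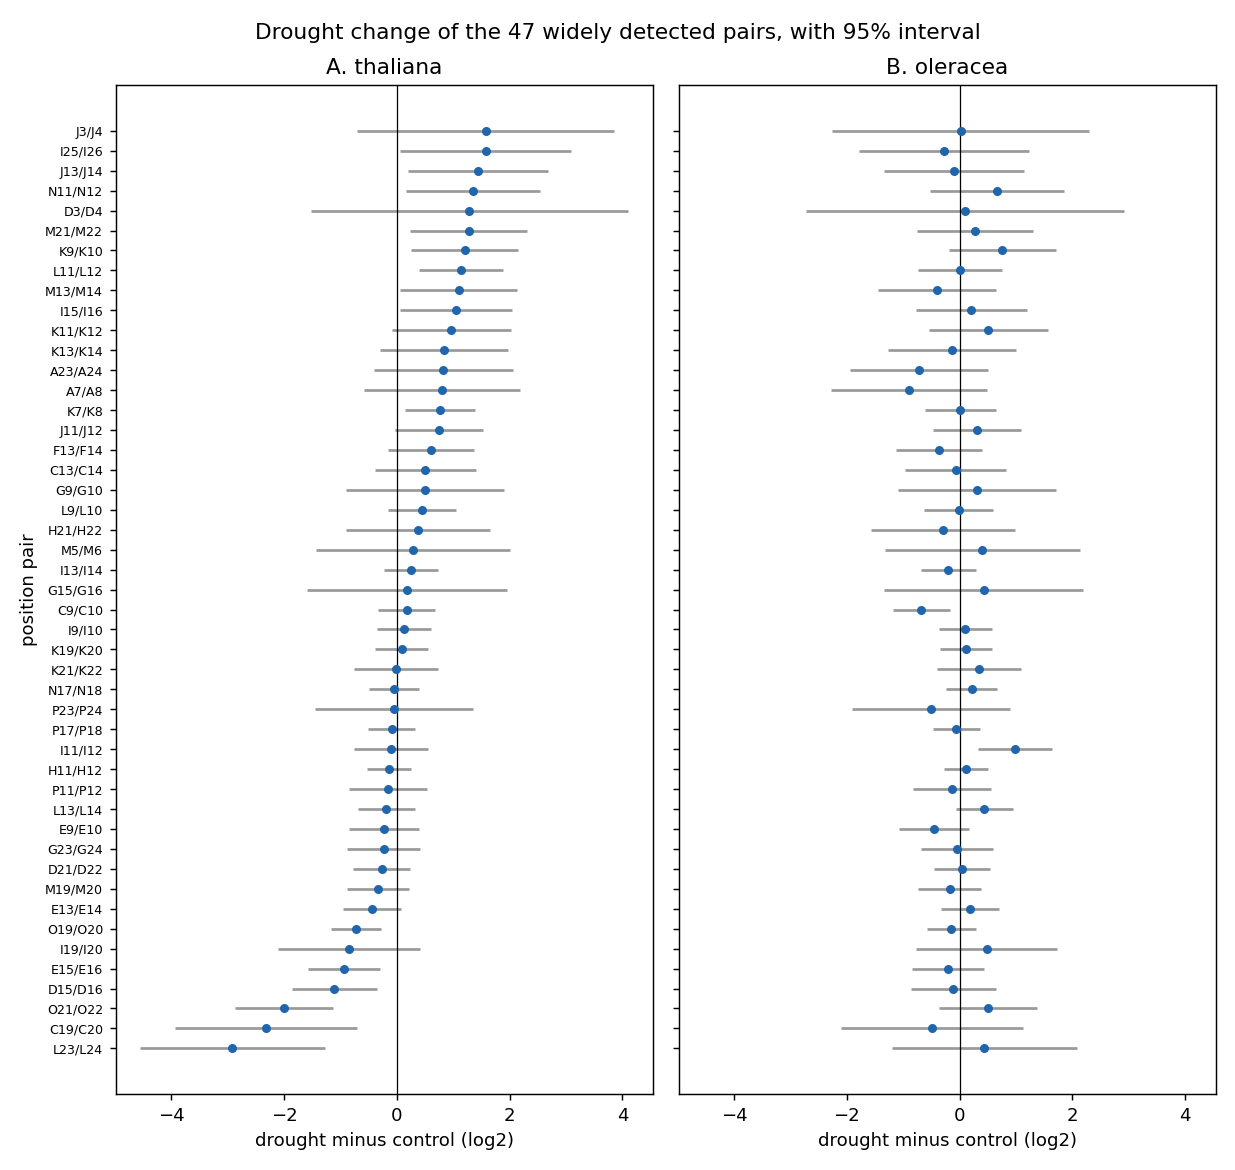
Drought minus control in log2 units for each of the 47 pairs, in A. thaliana (left) and B. oleracea (right), with the estimate of limma (point) and its 95% interval (line), ordered by the A. thaliana estimate. In A. thaliana the estimates run from -2.91 to 1.58, and in B. oleracea from -0.90 to 0.98.

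The second comparison was drought against control in B. oleracea. None of the 47 passed, and all 47 estimates were smaller than 1 log2 unit after quantile normalization. I11/I12 had the highest estimate and the smallest p. It read 7.17, 7.53, 7.14 and 5.96 on the controls and 8.01, 8.18 and 7.61 under drought, with no overlap, a change of 0.98 with an SE of 0.31 (95% interval 0.33 to 1.64, limma adjusted p = 0.284). With median scaling of the arrays in place of quantile normalization it passed, with a log2 change of 2.05 (limma adjusted p = 0.0292). L13/L14 read 5.98, 6.38, 6.41 and 5.94 on the controls against 6.26, 6.58 and 7.005 under drought. K9/K10 read 6.37, 7.18, 6.61 and 5.97 on the controls against 7.08, 6.71 and 8.08 under drought. Their log2 changes were 0.44 and 0.75 (limma adjusted p = 0.466 and 0.502), and controls and drought arrays overlapped at both.

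Among the pairs estimated dimmer, the smallest p-values were those of C9/C10, E9/E10 and A7/A8. C9/C10 had levels of 12.09, 12.09, 11.86 and 12.09 on the controls and 12.09, 10.93 and 11.05 under drought, a change of -0.68 with an SE of 0.23 (95% interval -1.18 to -0.17, limma adjusted p = 0.393). Drought 1 was level with the controls, and without it the change was -1.04 (limma adjusted p = 0.00654). Controls 1, 2 and 4 were tied at the ceiling of 12.09, so normalization narrowed the spread behind this p-value. In imager units drought 2 and 3 read 1554 and 6545, within the range of the controls (431 to 8032). E9/E10 had levels of 7.39, 7.41, 7.73 and 7.54 on the controls against 7.29, 6.89 and 7.01, without overlap, a change of -0.46 with an SE of 0.29 (95% interval -1.08 to 0.17, limma adjusted p = 0.551). A7/A8 had levels of 9.71, 7.66, 10.52 and 9.44 on the controls against 9.49, 9.13 and 6.68, with drought 3 below the rest, a change of -0.90 with an SE of 0.64 (95% interval -2.28 to 0.48, limma adjusted p = 0.609). With median scaling all 3 changed sign, to 1.02, 0.80 and 0.32, none of which passed.

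limma called 0 of the 47 (0% of all pairs) and gave 2 with an unadjusted p under 0.05 (4.26%), against 9.11% of all pairs. The median log2 change was 0.02 over the 47 and -0.06 over all pairs, with 25 estimates above 0 and 22 below. Groups did not overlap at 3 of the 47 (I11/I12, E9/E10 and F13/F14, 6.38%), against 13% of all pairs. The rule set a condition on the B. oleracea controls, so nothing is read from these shares. The size of the members' change rests on the scaling. With median scaling their median change was 0.97, with total minus background floored at the offset it was 0.39, and in each case that of all pairs stayed within 0.08 of 0. With drought 3 left out, the 1 B. oleracea array of high background, 0 of the 47 passed.

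The third comparison was the difference between the drought responses, B. oleracea minus A. thaliana. limma called 0 of the 47, against 0.26% of all pairs, and 6 of the 47 (12.8%) had an unadjusted p under 0.05, against 6.51% of all pairs. At O21/O22, estimated dimmer under drought in A. thaliana, the B. oleracea levels were 6.37, 6.65, 5.85 and 5.93 on the controls and 6.42, 6.81 and 6.88 under drought. The difference of the responses was 2.49 with an SE of 0.57 (95% interval 1.26 to 3.72, limma adjusted p = 0.0913). At L23/L24 it was 3.36 with an SE of 1.07 (95% interval 1.04 to 5.67, limma adjusted p = 0.41). At I11/I12 it was 1.08 with an SE of 0.43 (95% interval 0.15 to 2.01, limma adjusted p = 0.58). In the other direction lay C9/C10 with -0.85, L11/L12 with -1.12 and M13/M14 with -1.50 (limma adjusted p = 0.580 for each). Without B. oleracea drought 1, C9/C10 passed with -1.22 (limma adjusted p = 0.0444), with the same limit from the ceiling of 12.09. Without A. thaliana control 3, limma called 4 of the 47, against 1.82% of all pairs. These were L23/L24 (4.35, limma adjusted p = 5.64e-06), O21/O22 (2.94, limma adjusted p = 0.000229), C19/C20 (2.78, limma adjusted p = 0.00292) and L11/L12 (-1.53, limma adjusted p = 0.00755). Here too the p-values without control 3 only describe its influence, since it was set apart by these same levels. O21/O22 also passed with median scaling (2.29, limma adjusted p = 0.0115) and with array weights (2.60, limma adjusted p = 0.0110).

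The fourth comparison set B. oleracea against A. thaliana in watered plants, and 7 of the widely detected pairs passed. A7/A8, G9/G10, M5/M6 and H21/H22 were brighter in B. oleracea, and O21/O22, C19/C20 and L23/L24 were dimmer. The first 4 had a mean level of at least 8.44 in both B. oleracea groups. The last 3 were at 8.74 or more on A. thaliana controls 1, 2 and 4 and at 7.29 or less on each of the other 11 arrays.

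A7/A8 read 5.91, 5.88, 6.26 and 5.83 on the A. thaliana controls and 9.71, 7.66, 10.52 and 9.44 on the B. oleracea controls, a difference of 3.36 with an SE of 0.59 (95% interval 2.08 to 4.64, limma adjusted p = 0.00588). G9/G10 read 5.66, 5.97, 6.64 and 6.20 against 8.14, 8.14, 9.79 and 9.36, a difference of 2.74 with an SE of 0.60 (95% interval 1.44 to 4.03, limma adjusted p = 0.0275). In A. thaliana controls each of these pairs exceeded the limit on 1 of 4 arrays, so the sizes rest on dim signal. M5/M6 read 6.005, 6.71, 6.54 and 6.003 against 8.32, 8.93, 11.04 and 10.10, a difference of 3.28 with an SE of 0.74 (95% interval 1.69 to 4.88, limma adjusted p = 0.0282), with 2 of the 4 A. thaliana controls above the limit. H21/H22, above the limit on all 4, read 6.53, 6.21, 6.79 and 6.72 against 7.72, 8.45, 9.95 and 9.76, a difference of 2.41 with an SE of 0.55 (95% interval 1.23 to 3.58, limma adjusted p = 0.0282). At all 4 pairs every B. oleracea control lay above every A. thaliana control.

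The same B. oleracea arrays were high or low at several of these pairs. Under drought M5/M6 read 10.10, 12.09 and 7.81 in B. oleracea, H21/H22 9.15, 9.71 and 7.17, G9/G10 9.71, 10.55 and 7.24 and A7/A8 9.49, 9.13 and 6.68. G15/G16, which did not pass (2.65, limma adjusted p = 0.0763), followed them with 8.20, 8.05, 10.72 and 9.95 on the controls and 10.11, 11.49 and 7.37 under drought. At all 5 pairs drought 3, the B. oleracea array of high background, was the lowest of the 7 and control 3 was the highest control, a pattern noticed after the values were seen.

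O21/O22 had the values given above, which average 8.53 ± 0.96 and 6.20 ± 0.38 over the 4 controls of A. thaliana and of B. oleracea (SD), a difference of -2.32 with an SE of 0.37 (95% interval -3.13 to -1.52, limma adjusted p = 0.00346). C19/C20 read 11.31, 10.20, 6.65 and 9.87 on the A. thaliana controls and 6.29, 6.80, 6.58 and 6.38 on the B. oleracea controls, a difference of -2.99 with an SE of 0.69 (95% interval -4.49 to -1.50, limma adjusted p = 0.0286). L23/L24 read 6.62, 7.11, 6.27 and 5.96 on the B. oleracea controls, a difference of -2.78 with an SE of 0.70 (95% interval -4.30 to -1.27, limma adjusted p = 0.0394). At C19/C20 and L23/L24 control 3 of A. thaliana lay inside the range of the B. oleracea controls. Without it the differences were -2.78 at O21/O22, -3.94 at C19/C20 and -3.78 at L23/L24 (limma adjusted p = 4.46e-06, 1.58e-06 and 3.21e-07). These p-values describe the influence of control 3, which was set apart by these same levels.

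**Figure D5:**
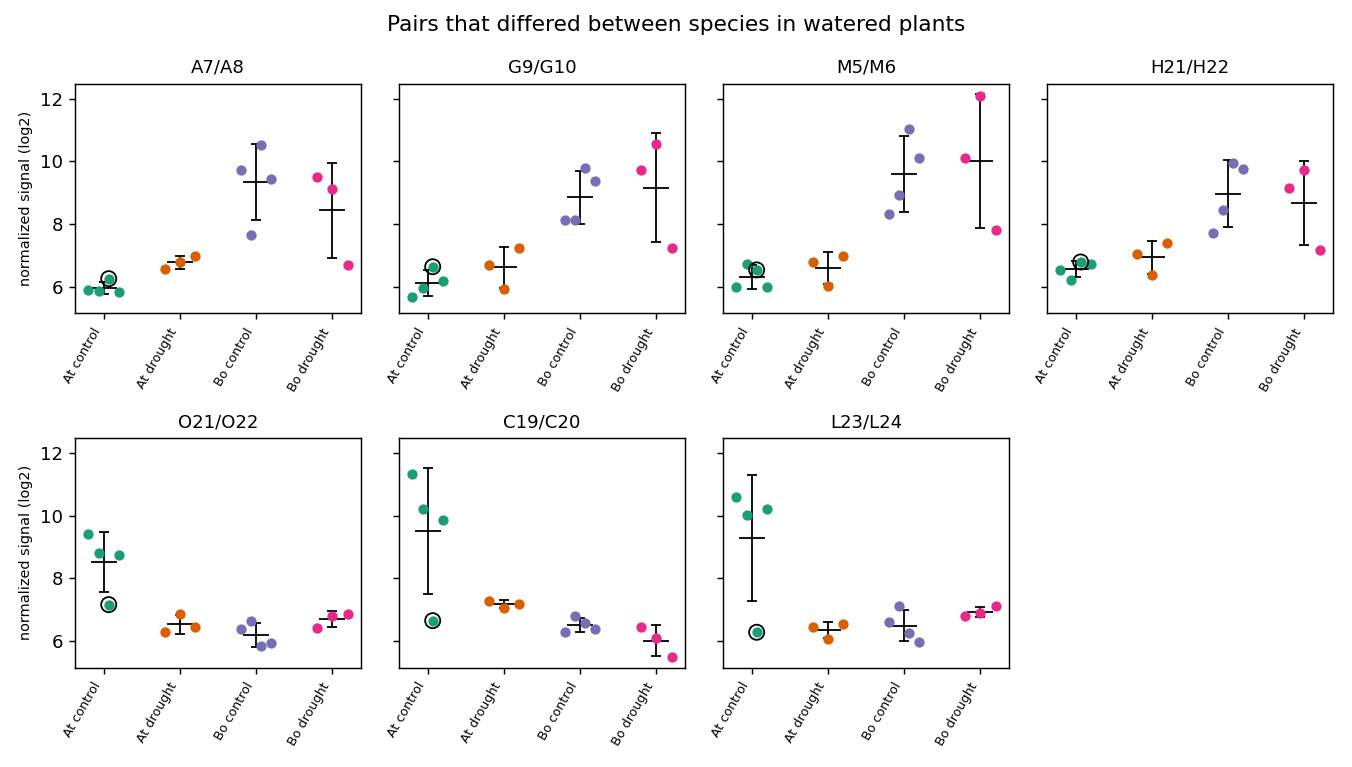
Normalized signal (log2) of the 7 pairs that passed the test between species in watered plants, by group (At, A. thaliana; Bo, B. oleracea), with each array as a point, the mean as a bar and the SD as the error bar. The ring marks the array labelled A. thaliana control 3, which lies far below the other A. thaliana controls at C19/C20 and L23/L24.

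Of the 47, limma called 4 brighter in B. oleracea, against 1.56% of all pairs, and 3 dimmer, against 2.34%, which makes 7 (14.9%) against 3.91% of all pairs. At an unadjusted p under 0.05 there were 17 (36.2%) against 15.6%, and groups did not overlap at 8 (7 higher and 1 lower) against 8.07%. Nothing is read from these shares, since the rule set a condition on the B. oleracea controls and barred pairs dim there. The median difference was 0.12 over the 47 and 0.03 over all pairs, and over the 47 it was -0.34 with median scaling and 1.62 with the authors' value table, in which the median of all pairs was 0.57. The count was 2 without A. thaliana control 1, A. thaliana control 2 or B. oleracea control 3. Of all 384 pairs 11, 5 and 7 passed in these fits. The count was 3 without B. oleracea control 4, against 9 of all 384 pairs. It was 11 without A. thaliana control 3, where 21 of all pairs (5.47%) passed. O21/O22 and A7/A8 passed with any 1 array left out. The split of calls depended on the scaling, with 0 brighter and 5 dimmer under median scaling, 5 brighter and 0 dimmer in the authors' value table and 0 calls under cyclic loess. Of all 384 pairs 12, 8 and 0 passed under these scalings. With background level as a blocking factor 0 passed, and among the controls all A. thaliana arrays had a high and all B. oleracea arrays a low background, so that an effect of species cannot be told apart from one of background.

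The fifth comparison set the species side by side under drought. None of the 47 passed, and I11/I12 came closest, with levels of 6.31, 5.99 and 6.48 in A. thaliana and 8.01, 8.18 and 7.61 in B. oleracea. All B. oleracea arrays lay above all A. thaliana arrays, a difference of 1.68 with an SE of 0.33 (95% interval 0.98 to 2.38, limma adjusted p = 0.0652). M5/M6 and G9/G10 were estimated brighter in B. oleracea, without overlap, by 3.40 with an SE of 0.86 (95% interval 1.56 to 5.24, limma adjusted p = 0.262) at M5/M6 and 2.54 with an SE of 0.69 (95% interval 1.05 to 4.04, limma adjusted p = 0.262) at G9/G10. In A. thaliana M5/M6 read 6.79, 6.03 and 6.98, and G9/G10 read 6.70, 5.93 and 7.23. Estimated brighter in A. thaliana were C9/C10, with a difference of -0.74 (limma adjusted p = 0.469), L11/L12, with -0.94 (limma adjusted p = 0.633), and P11/P12, with -0.71 (limma adjusted p = 0.744). P11/P12 read 8.50, 7.33 and 8.81 in A. thaliana drought and 7.44, 7.24 and 7.82 in B. oleracea drought. In the authors' value table C9/C10 and P11/P12 turned to 1.25 and 1.18, without passing. C9/C10, at the ceiling of 12.09 on each A. thaliana drought array, passed without B. oleracea drought 1 (-1.10, limma adjusted p = 0.0128). With array weights L11/L12 and P11/P12 passed (-1.07 and -1.09, limma adjusted p = 0.0361 and 0.0253).

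limma called 0 of the 47 (0% of all pairs), and 10 (21.3%) had an unadjusted p under 0.05, against 6.77% of all pairs. Groups did not overlap at 9 (19.1%, 7 higher and 2 lower in B. oleracea), against 14.1% of all pairs. The count changed with the scaling and with array weights, and also when drought 3 of B. oleracea was left out. Without drought 3 limma called 6 of the 47, which were all 6 pairs called of 384 (1.56%), all brighter in B. oleracea. They were G9/G10 (3.51, limma adjusted p = 0.00516), M5/M6 (4.50, limma adjusted p = 0.00516), G15/G16 (4.04, limma adjusted p = 0.0103), I11/I12 (1.84, limma adjusted p = 0.0222), A7/A8 (2.53) and H21/H22 (2.49, limma adjusted p = 0.0438 for both). Drought 3 was the lowest of the 3 B. oleracea drought arrays at all 6 of these pairs, so leaving it out favours such calls. The rule also set a condition on the B. oleracea controls, so nothing is read from these counts and shares. Among drought arrays of low background (1 and 2 of each species) 6 passed as well, against 1.82% of all pairs, 5 brighter in B. oleracea and A23/A24 dimmer (-2.37, limma adjusted p = 0.0391). A block for background level left 0.

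Across the 4 groups, the SD of the group means had a median of 0.50 log2 units over the 47 pairs and 0.18 over the 241 others. The SD of single arrays within groups had medians of 0.53 and 0.29. An SD of means and an SD of single arrays are not on 1 footing, and no test of the spread was made. The highest of the 4 group means was in A. thaliana drought at 19 pairs, in A. thaliana controls at 13, in B. oleracea drought at 9 and in B. oleracea controls at 6. The steadiest were H11/H12, N17/N18 and K19/K20, with SDs over the group means of 0.08, 0.09 and 0.11. H11/H12 had means of 6.57 ± 0.04, 6.43 ± 0.33, 6.48 ± 0.19 and 6.60 ± 0.26 for controls and drought of A. thaliana and then of B. oleracea. The most variable were M5/M6, G15/G16 and G9/G10, with 1.94, 1.61 and 1.54, and their means were at least 8.86 in both B. oleracea groups and at most 6.76 in both A. thaliana groups.

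The order of the 47 pairs was kept best between the groups of B. oleracea. The Pearson correlation of group means over the 47 was 0.967 between B. oleracea controls and drought, 0.799 between A. thaliana controls and drought, 0.619 between the controls of both species and 0.775 between the drought groups. As Spearman correlations these were 0.935, 0.596, 0.338 and 0.723. Between A. thaliana drought and B. oleracea controls the Pearson correlation was 0.791 and the Spearman correlation 0.736. Between A. thaliana controls and B. oleracea drought they were 0.589 and 0.376. The means of the A. thaliana controls include control 3, and no correlation of group means was computed without it. These correlations describe pairs that share arrays and normalization. The mean Spearman correlation of an array with the others of its group was 0.317 for A. thaliana control 3 and 0.457 to 0.617 for the other A. thaliana controls, 0.801 to 0.894 in A. thaliana drought, 0.711 to 0.811 in B. oleracea controls and 0.716 to 0.845 in B. oleracea drought.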

How the data were processed

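Spot intensities of 14 macroarrays were used as deposited. Per the file headers, the authors' files give a total intensity, a background intensity, their difference and a normalized volume for 768 spots, with a presence flag. The quantification software is not given in the sources used here, and the label column is empty. The membership rule was applied to total minus background. For levels and tests, total intensities were corrected with normexp (offset 17.7 units, the median total of 177 divided by 10), put on the log2 scale (the log2 values were computed from the deposited intensities), quantile normalized and averaged over the spots of a pair. limma 3.58.1 in R 4.3.3 fitted 4 group means to 384 pairs, with Benjamini-Hochberg adjustment over all pairs and a threshold of 0.05. The code was tested on simulated data. The exact permutation test planned for the agreement of spots is not given, since the rule used the same signal. The number of arrays limits precision.

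Members, lists and tests were chosen with earlier results of these data known. Pairs were named where they had the 5 highest or 5 lowest levels, passed a comparison (or had the 3 smallest p in a direction, where fewer than 3 passed), had the 3 smallest or largest SDs over group means, or lay at the edge of the rule. Others are named where a sentence says that they were called, did not overlap or were noticed afterwards.
Gene and cell type lists could not be applied without gene names. Arrays of the same replicate number were not treated as paired. Their deviations correlated at -0.318 to 0.122, which shows no shared effect but cannot exclude a pairing. Alternatives covered background correction, offset, normalization, the deposited value table (the authors' normalized intensity), spots, a filter, blocks, array weights and single arrays left out.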

Additional observations from a re-analysis of the deposited data

Results flagged for a closer look

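Within the control groups of 4 arrays, an outlier check marked single arrays at several of the named pairs. The check is Dixon's, on the gap between an extreme array and its nearest neighbour relative to the range of the group, and chance alone flags about 5% of groups. Where the range is small, a marked array need not lie far from the others. Over all 47 pairs it marked 12 in A. thaliana controls, 8 of them through control 3, and 3 in B. oleracea controls. Control 3 was the lowest A. thaliana control at L23/L24 (6.28) and P11/P12 (7.89) and the highest at K7/K8 (7.08) and M13/M14 (10.01). Control 1 of A. thaliana was the lowest at D3/D4 (4.82) and J3/J4 (5.46), where the deposited background exceeded or nearly equalled the total intensity. It was the highest at H11/H12 (6.63), where the other A. thaliana controls read 6.54 to 6.55. Control 4 of A. thaliana was the lowest at N17/N18 (5.80). In B. oleracea, control 3 was the lowest at C9/C10 (11.86) and control 1 at E15/E16 (5.77). At C9/C10 the other B. oleracea controls were tied at the ceiling of 12.09, so the mark there follows from the normalization. A. thaliana control 3 also stood apart in the median signal over background of the 47 pairs (937 units) and in their share of the summed signal (86.4%).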

How the results depend on the processing

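The rule gave 47 pairs, 20 with the limit at the 99th percentile of the low block and 30 with at least 12 arrays asked, all among the 47. Counts of members called are given in the order drought in A. thaliana, drought in B. oleracea, difference of responses, species in control and species in drought, which were 0, 0, 0, 7 and 0. Over all 384 pairs they were 0, 0, 1, 15 and 0. The count over all pairs fitted, 384 except with the filter on dim pairs, follows each count in brackets. The species count in controls was 2 with no background subtraction, 15 with floored subtraction, 33 with quantile normalization within each species, 0 with cyclic loess or the background block, and 4 with the replicate block. The species count under drought was 1 with a larger offset, median scaling, the filter on dim pairs, the second spot only, the drought arrays only or the replicate block, 4 with cyclic loess, 5 with the value table, 6 among low-background arrays, 8 with array weights and 36 with quantile normalization within each species, which moved the median of all pairs by -1.27 in controls and -1.30 under drought. The count for the difference of responses was 1 (3) with floored subtraction, 1 (2) with median scaling and 1 (4) with array weights. It was 1 (1) for drought in B. oleracea with median scaling. For drought in A. thaliana it was 3 (6) with array weights and 7 (12) without control 3 and drought 2. With single arrays left out the 5 counts ranged from 0 to 14, 0 to 1, 0 to 4, 2 to 11 and 0 to 6. Over all 384 pairs they ranged from 0 to 20, 0 to 2, 0 to 7, 5 to 21 and 0 to 6. The differences in spot agreement between drought and control then ranged from 0.0148 to 0.0905 for A. thaliana and from 0.0449 to 0.134 for B. oleracea. With Pearson correlations the A. thaliana difference was -0.0195. The drought change in B. oleracea turned to 1.02 at C9/C10, 0.80 at E9/E10 and 0.32 at A7/A8 with median scaling, and at E9/E10 to 0.11 with no background subtraction and 0.0516 with floored subtraction. With the value table the species difference under drought turned to 1.25 at C9/C10 and 1.18 at P11/P12, where the median of all pairs was 0.43. The causes were not tested. The fits within background levels, of drought arrays only, of the second spot only and without control 3 and drought 2 were chosen after seeing the data. The replicate block moved no other count by over 1.5 times. The median of the 47 stood at 1.86 to 2.03 times the limit on A. thaliana controls 1, 2 and 4 and at 15.8 times on control 3. On the B. oleracea controls it stood at 1.95 to 5.36 times. Whether dim signal limited what could be detected was not tested.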

Other observations

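The authors' presence flag, which took no part in the choice of the 47 pairs, marked 60.6% to 98.9% of their spots on an array, 5.60% to 81.1% of the spots of the 241 other pairs and 0% to 55.7% of those of the low block. On the 4 B. oleracea controls it marked 43.2% to 55.7% of the spots of the low block, and on the 3 B. oleracea drought arrays 2.08% to 3.65%.

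The brightest of the 47 pairs exceeded their median by 14.6 to 22.9 times on A. thaliana controls 1, 2 and 4, by 104 times on control 3, by 63.4 to 86.3 times on the A. thaliana drought arrays and by 26.7 to 245 times on the B. oleracea arrays. The highest total intensity of any spot was 4150 to 5066 units on A. thaliana controls 1, 2 and 4 and 154724 units on control 3.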
